A study of Rattus norvegicus with 287 samples.

Results

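Adipose tissue was set against liver and skeletal muscle in the same 4 rats. The comparison rested on 12 RNA-sequencing libraries, chosen by label from the 287 libraries of the study: adipose, liver and muscle of the sham-treated obese rats of the 3-day arm, 4 libraries a tissue, with 1 of each tissue from each of the rats numbered 41, 42, 43 and 44. The study gave rats focused ultrasound aimed at the porta hepatis, the entry of vessels, ducts and nerves into the liver. Its sessions used a 1.1 MHz transducer for 3 minutes a day under isoflurane, and the sham rats used here went through the procedure with no energy applied. All rats used here were male and obese of the Zucker diabetic fatty (ZDF) model, a rat line whose obesity follows from a defective leptin receptor, so every tissue compared came from an obese animal and none from a lean one. Neither the fat depot nor the age of the rats is stated in the labels.

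Further groups of the same model were used to look at the same genes again. Of these, 5 groups of 4 other rats each received ultrasound and are labelled pFUS 3-days AM only x1, pFUS 3-days AM only x10, pFUS 4-weeks AM & PM x1, pFUS 4-weeks AM only x10 and pFUS 4-weeks AM & PM x10, where pFUS stands for the ultrasound stimulus. The last was a sham-treated 7-week group with 39 libraries of 8 tissues.

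White fat cells store triglyceride in 1 large droplet coated with perilipins, release fatty acids from it through lipases under adrenergic and insulin control, and take fatty acids up from lipoproteins through lipoprotein lipase. They also secrete hormones such as leptin and adiponectin. The nuclear receptor PPAR gamma and the C/EBP factors hold the fat-cell program, and the tissue around the cells contains vessels, stromal progenitors, macrophages and, on visceral depots, a mesothelial lining. Liver also makes fatty acids and secretes most plasma proteins, and muscle takes up glucose and burns fat.

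The promoters of 4 genes that mark the fat cell in the results are shown because C/EBP factors are known to act at promoters of this kind. The genes encode adiponectin (Adipoq), leptin (Lep), perilipin 1 (Plin1) and the droplet-fusing protein Cidec. Each sequence covers 300 bases around the start annotated in RefSeq on the build GRCr8, printed 5′ to 3′ on the strand of the gene. Capitals mark matches to the C/EBP-type motif TTGCNNAA (read on the other strand as TTNNGCAA) and to CCAAT (on the other strand ATTGG), both searched on both strands. In order, the windows lie at chr11:91240120-91240419 (minus strand), chr4:58626288-58626587 (plus strand), chr1:143086099-143086398 (minus strand) and chr4:148137066-148137365 (minus strand).
Adipoq: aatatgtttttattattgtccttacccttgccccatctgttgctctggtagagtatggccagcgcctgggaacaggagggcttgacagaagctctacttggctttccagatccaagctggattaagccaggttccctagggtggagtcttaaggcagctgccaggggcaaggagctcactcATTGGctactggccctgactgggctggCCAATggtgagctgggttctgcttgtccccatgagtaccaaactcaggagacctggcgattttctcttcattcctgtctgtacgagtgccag
Lep: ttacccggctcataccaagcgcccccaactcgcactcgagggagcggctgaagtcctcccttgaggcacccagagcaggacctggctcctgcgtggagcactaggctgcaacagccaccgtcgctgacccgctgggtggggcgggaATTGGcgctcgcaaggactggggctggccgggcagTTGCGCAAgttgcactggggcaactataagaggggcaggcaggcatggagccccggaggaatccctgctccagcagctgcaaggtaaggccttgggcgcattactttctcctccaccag
Plin1: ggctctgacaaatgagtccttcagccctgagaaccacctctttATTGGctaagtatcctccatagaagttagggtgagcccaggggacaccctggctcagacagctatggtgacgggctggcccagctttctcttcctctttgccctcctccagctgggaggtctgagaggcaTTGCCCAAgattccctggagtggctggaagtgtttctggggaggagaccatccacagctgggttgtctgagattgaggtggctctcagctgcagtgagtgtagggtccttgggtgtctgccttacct
Cidec: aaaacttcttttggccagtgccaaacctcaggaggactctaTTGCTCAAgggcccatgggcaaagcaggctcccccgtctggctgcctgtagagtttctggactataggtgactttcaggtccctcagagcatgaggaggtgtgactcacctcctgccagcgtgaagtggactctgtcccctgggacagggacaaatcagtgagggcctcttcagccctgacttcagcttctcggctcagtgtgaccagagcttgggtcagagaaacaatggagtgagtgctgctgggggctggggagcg

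The C/EBP-type motif lay 69 bases before the start in Lep, 77 in Plin1 and 209 in Cidec, and the Adipoq window held no match. CCAAT lay 42 bases before the Adipoq start, and ATTGG lay 69 bases before it, 104 before that of Lep and 207 before that of Plin1. Among the 279 promoters found for genes called strongly higher in fat (268 of 353 such genes with a name had an entry), 34 (12.2%) held TTGCNNAA, against 3547 of all 33469 promoters in the table (10.6%). CCAAT was found in 81 (29.0%) of them and in 12549 (37.5%) of all. These are descriptions of letters in these windows.

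The values were expected counts per gene, and levels are given as CPM, a gene's count brought to a common scaled library size. CPM is not divided by gene length, so levels of different genes are not compared. Totals ran from 5902198 to 8289773 counts in fat, 8885855 to 12909555 in liver and 9629584 to 11023393 in muscle. Per the labels, fat libraries were made with a total-RNA kit and liver and muscle libraries with an mRNA kit, so the kit and the tissue cannot be told apart as far as the labels go. RNAs that lack a poly(A) tail took 14.3% ± 2.31 of counts in fat, 4.85% ± 0.283 in liver and 2.42% ± 0.314 in muscle (SD, n = 4 each). At 7 weeks, liver and muscle libraries labelled with the same mRNA kit held at most 0.0310%, so the 3-day liver and muscle shares were above what that kit gave there. Every fat library lay above every library of either other tissue in that share (exact two-sided permutation test, p = 0.0286 each, the smallest that 4 against 4 allows, and 0.0286 after adjustment over 4 tests). That test exchanged labels over all libraries of both tissues and did not use the pairing by rat. Hallmark genes followed the tissue labels: Adipoq was 2456 to 3676 CPM in fat, 0 in liver and 3.85 to 42.3 in muscle. Albumin (Alb) was 117496 to 141996 CPM in liver and 149 to 865 in fat, and muscle creatine kinase (Ckm) was 17168 to 26284 CPM in muscle and 0.259 to 9.26 in fat.

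Of 13773 genes tested with edgeR's quasi-likelihood test, 5167 (37.5%) were higher and 4769 (34.6%) lower in fat than in liver, and 5600 (40.7%) were higher and 4160 (30.2%) lower than in muscle, at an adjusted p below 0.05. A gene is called fat-high when it was higher than in liver and than in muscle by the larger of both p-values, and fat-low when it was lower than in both. There were 2980 fat-high genes (21.6%) and 1711 fat-low genes (12.4%). These shares of all genes are the background for the counts of every list below. A gene with few counts in liver and muscle entered the test only by being high in fat. The fat-high share of a list that holds such genes is therefore partly fixed by the filter on low counts. A stricter class asked also for a difference of at least 8-fold from each tissue and for groups that did not overlap: 434 genes (3.15%) were strongly fat-high and 62 (0.45%) strongly fat-low. Of the 434, 353 had gene names usable here, 22 were RNAs lacking poly(A) and 59 had provisional names; 15 had the same counts in every library as another of them. In bulk tissue, fewer cells of a type and less RNA per cell cannot be told apart. With library totals in place of scaling factors, an alternative added after seeing the data, the median gene shifted toward fat by 0.80 (log2) against liver and 0.73 against muscle, the share of higher calls rose from 63.5% to 93.6%, and 5929 genes were fat-high and 407 fat-low. All 434 strongly fat-high genes were among the 907 called that way, and 28 of the 62 strongly fat-low genes were still called.

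**Figure D1:**
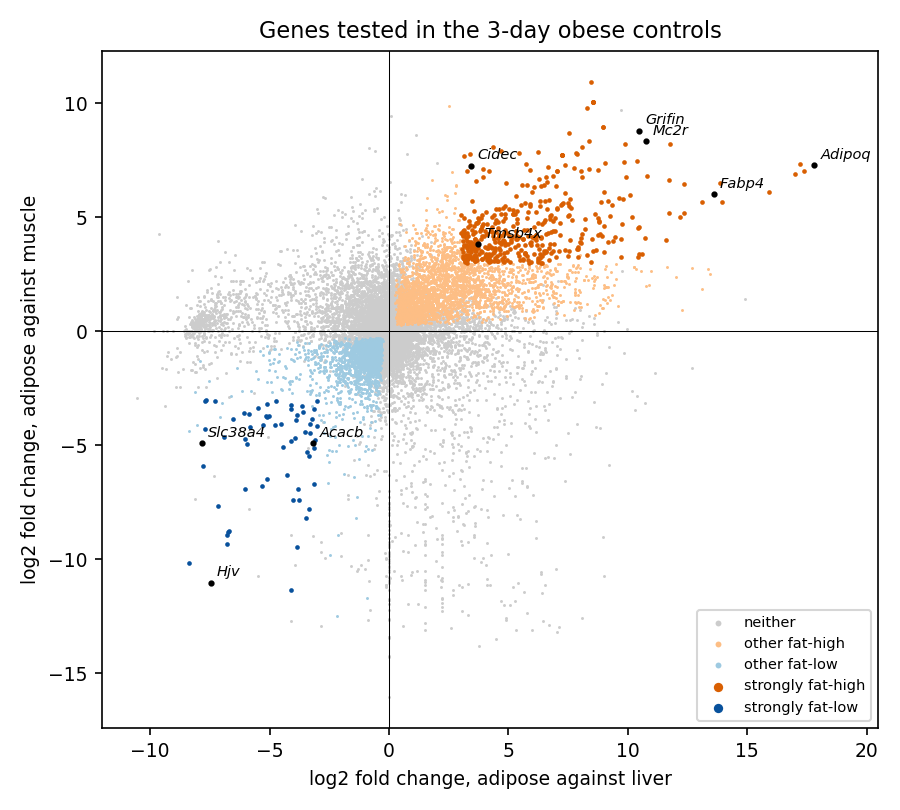
Log2 fold change of fat against liver (x axis) and against muscle (y axis) for the 13773 genes tested, 1 point a gene, coloured by call. The 434 strongly fat-high genes lie at 3 or more on both axes and the 62 strongly fat-low genes at -3 or less; Adipoq lies far to the right because its liver count was 0, where the fitted fold change depends on the prior count.

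The fat-cell hormones adiponectin, leptin and resistin had no count in liver and were strongly fat-high. In the list of adipokines and secreted factors, 9 of 19 members tested were fat-high and 1 was fat-low, with a median log2 difference of 1.66 against liver and 4.16 (4.04 at the bounds) against muscle, where genes at 0 in a tissue are also given at the bound that 3 counts in the group allow. The median of all genes tested was 0.02 against liver and 0.23 against muscle (0.22 at the bounds). A fitted log2 difference from a tissue with 3 counts or fewer depends on the prior count and is no bound. Adipoq, the insulin-sensitizing hormone adiponectin, was 3039.8, 2456, 3676 and 3190.1 CPM in the fat of rats 41, 42, 43 and 44, 0 in the 4 livers and 12.1, 42.3, 20.3 and 3.85 in the muscles. It was at least 37724-fold higher than in liver and 157-fold higher than in muscle (log2 7.29 ± 0.76, SE, adjusted p = 8.64e-05 for both tissues). Lep, the satiety hormone leptin, was 2130.1, 2012, 2088 and 2915 CPM in fat, 0 in liver and 7.31, 53.8, 6.93 and 2.36 in muscle. Fat 44 was the highest of the 4, and no fat library overlapped with another tissue. Lep was 129.6-fold higher than in muscle (log2 7.02 ± 1.11, adjusted p = 0.00174) and at least 27908-fold higher than in liver.

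Muscle 42 stood above the other 3 muscle libraries for both hormones. Without it the log2 difference from muscle was 7.98 for Adipoq and 8.67 for Lep. The same library held Alb at 754 CPM, against 73.1, 7.15 and 318 in muscles 41, 43 and 44. Muscle 44, the next highest for Alb, was the lowest muscle library for both hormones. Whether RNA of other tissues in muscle 42 has a part in these levels was not tested.

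Resistin (Retn), an adipokine of rodent fat cells, was 158, 132, 245 and 272 CPM in fat, 0 in liver and 0.373 to 5.43 in muscle, where rat 42 was again the highest. Complement factor D (Cfd), the adipsin that starts the alternative complement pathway, was 467, 331, 568 and 365 CPM in fat, 2.80 to 4.62 in liver and 5.72 to 21.9 in muscle. Both were called strongly fat-high, and without muscle 42 the difference of Retn from muscle moved from a log2 value of 6.52 to 7.54. Neuregulin 4 (Nrg4), a growth factor secreted by fat, was strongly fat-high at a low level, 2.96 to 4.92 CPM, with no count in muscle and 0.0921 to 0.305 CPM in liver. The monocyte attractant Ccl2 was 9.85 to 13.5 CPM in fat, with all liver and muscle libraries at or under 1.34. Nrg4 and Ccl2 passed the filter on low counts through fat alone, so they could be tested only by being high in fat.

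Other secreted factors set fat apart from 1 tissue and not from both. Retinol-binding protein 4 (Rbp4) was 273, 249, 376 and 482 CPM in fat, lower than the 2787 to 3342 of liver and higher than the 4.20 to 37.2 of muscle. Angiotensinogen (Agt) had the same order, with a fat level of 65.4 to 168 CPM against 449 to 529.8 in liver and 0.959 to 8.31 in muscle. The lipase inhibitor Angptl4 did not pass the test against liver (log2 0.11 ± 0.34, adjusted p = 0.796), and was 18.1-fold higher than in muscle. Vegfa, the vessel growth factor, was the fat-low member at 97.2 to 112 CPM against 234 to 294 in liver and 160.3 to 275 in muscle; with library totals it was no longer called (log2 -0.17, adjusted p = 0.528).

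**Figure D2:**
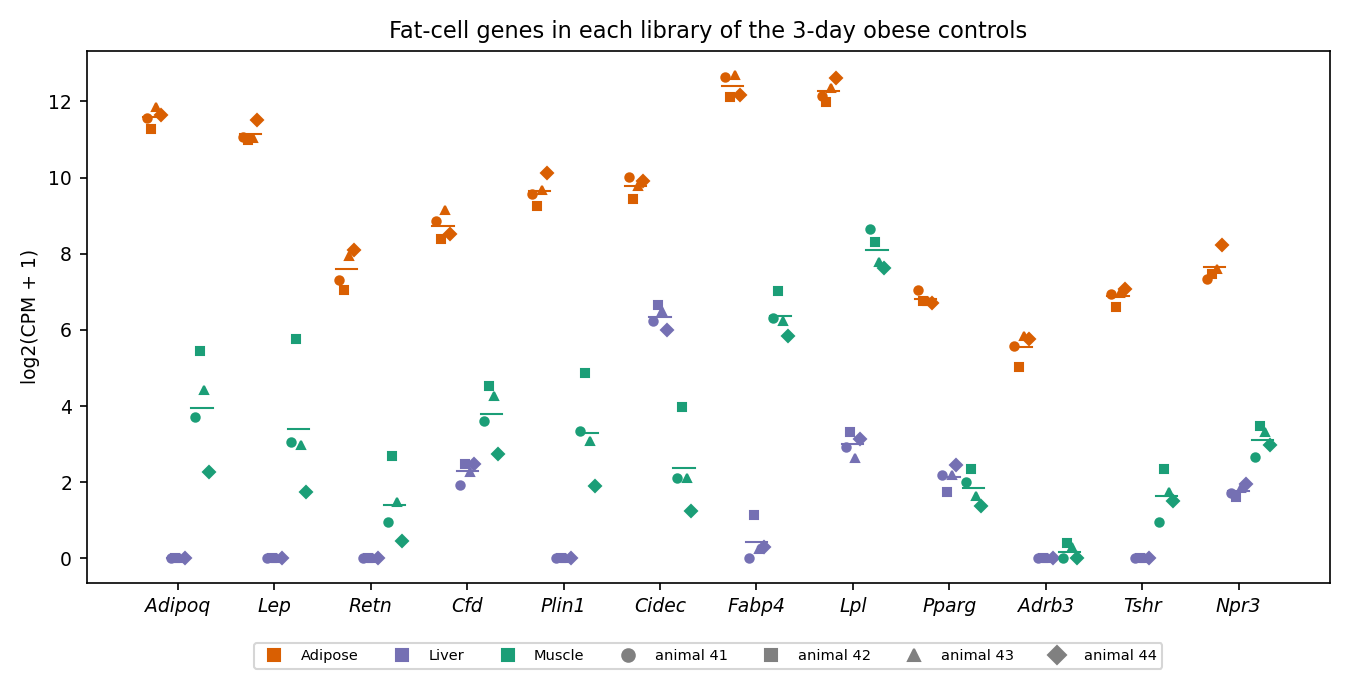
Level of 12 fat-cell genes on a log2(CPM + 1) scale in each of the 12 libraries, with colours for tissue, symbols for the animal and bars for the mean of 4 libraries. For each gene the 4 fat libraries sit above all 8 liver and muscle libraries. Muscle 42 is the highest muscle library for every gene shown except Lpl, where muscle 41 is.

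Genes that build the fat cell and its droplet were higher in fat for most members. Of 25 members of the adipocyte structure and identity list, 21 were fat-high, 14 of them strongly, none was fat-low, and the median log2 difference was 7.16 (6.59 at the bounds) against liver and 3.63 against muscle. Fabp4, the fatty acid carrier of fat-cell cytoplasm, was 6336, 4438, 6629 and 4617 CPM in fat, 0 to 1.22 in liver and 56.7 to 129.7 in muscle (log2 6.02 ± 0.52 against muscle, adjusted p = 6.15e-07). Plin1, which guards the droplet against lipases, was 754, 610.0, 814 and 1102 CPM in fat, 0 in liver and 2.74 to 28.4 in muscle, and its log2 difference from muscle was 6.10, or 6.97 without muscle 42. Trarg1, a regulator of glucose transporter traffic in fat cells, was 466 to 799 CPM in fat, with 1 count in all of liver and 4.85 to 24.8 CPM in muscle. No library of another tissue reached the fat range of these genes, and muscle 42 was the highest muscle library for each.

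Caveolin 1 (Cav1), the coat protein of the membrane pits that cover fat cells, varied little among the 4 fat libraries at 1298, 1211, 1249.7 and 1223 CPM. It was 315-fold higher than in liver and 10.3-fold higher than in muscle, which held 109 to 128. Synuclein gamma (Sncg), neuronatin (Nnat) and S100b, better known from nerve tissue and also made by fat cells, had 1738 ± 388, 2033 ± 477 and 1478 ± 269.6 CPM in fat (SD, n = 4). Their highest level in liver was 0.611 CPM, that of S100b, and muscle 42 was again the highest muscle library for all 3, with log2 differences from muscle of 6.90, 7.34 and 6.49 and, without it, of 7.62, 8.12 and 7.14. The semicarbazide-sensitive amine oxidase Aoc3 was 1231, 1039.8, 1568 and 1747 CPM in fat and 93.5 to 129 in muscle. Vimentin (Vim), annexin A1 (Anxa1) and the actin-binding thymosins Tmsb10 and Tmsb4x, made by many non-parenchymal cells, were also strongly fat-high, at 1379 ± 86.9, 835 ± 51.8, 2095 ± 420.4 and 1510.1 ± 210.0 CPM.

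The machinery of lipolysis and droplet control was fat-high for 16 of 25 members, strongly for 9, and fat-low for none (median log2 difference 2.85 against liver and 3.58 against muscle). Hormone-sensitive lipase (Lipe) was 339.6, 272, 376 and 439.7 CPM in fat, 2.13 to 6.27 in liver and 12.6 to 41.2 in muscle. Adipose triglyceride lipase (Pnpla2) was 586, 537, 671 and 645 CPM in fat and 208, 109, 77.7 and 81.4 in muscle. Its difference from muscle (log2 2.36 ± 0.66) lost its call when muscle 44 was left out, with an adjusted p of 0.0533. Cidec, which fuses droplets, was 1042, 693, 884 and 953 CPM in fat, 74.4, 99.6, 89.2 and 63.4 in liver and 3.36, 14.7, 3.35 and 1.37 in muscle, so it was 10.9-fold lower in the liver of these obese rats and lower still in muscle. Plin4 was 461 to 873 CPM in fat and 314 to 538 in muscle, 1.91-fold higher; it too lost its call without muscle 44 (adjusted p = 0.0674). Hilpda, an inhibitor of Pnpla2, was low at 1.92 to 6.32 CPM and had 1 count in all of liver and 2 in muscle. Hilpda, Cidea and the receptors Adrb1, Adrb3, Hcar1 and Hcar2 of this list passed the filter on low counts through fat alone.

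The receptors that steer the fat cell were fat-high for 11 of 24 members tested (45.8%, against 21.6% of all genes), strongly for 8, and fat-low for 1 (median log2 difference 2.65 (2.22 at the bounds) against liver and 1.46 against muscle). The beta-3 adrenergic receptor (Adrb3), the main trigger of lipolysis in rodents, was 46.8, 31.4, 56.1 and 53.1 CPM in fat, 0 in liver and at most 0.332 in muscle. It was at least 572-fold higher than in liver and 295-fold higher than in muscle, where the log2 difference was 8.21 ± 0.42 with and 8.98 without muscle 42. The beta-1 receptor (Adrb1) was 0.916 to 3.37 CPM in fat, strongly fat-high but low.

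The thyrotropin receptor (Tshr) was 123, 96.8, 124 and 134 CPM in fat, 0 in liver and 0.959 to 4.10 in muscle. Npr3, which clears natriuretic peptides, was 161, 175, 193 and 298 CPM in fat, 2.04 to 2.84 in liver and 5.39 to 10.1 in muscle. Both were strongly fat-high, with muscle differences of 50.6-fold and 26.3-fold. Hcar1 and Hcar2, which sense lactate and ketone bodies and restrain lipolysis, were 8.42 to 17.4 and 3.76 to 5.58 CPM in fat. The fatty acid receptor Ffar4 (4.40 to 8.94 CPM) and the incretin receptor Gipr (3.04 ± 1.44 CPM, SD, n = 4) were low in fat, with at most 1 count in liver and in muscle. Adrb3, Adrb1, Hcar1, Hcar2, Ffar4 and Gipr held at most 20 counts in all of liver and 10 in all of muscle. They passed the filter on low counts through fat alone, so their calls are no result about the list. The insulin receptor (Insr) was the fat-low member at 49.7 to 65.8 CPM against 191 ± 23.0 in liver and 113 ± 15.0 in muscle (SD, n = 4); with library totals it was not called (log2 -0.23, adjusted p = 0.272).

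Fatty acid synthesis genes were mostly between liver and muscle in level. Of 19 genes of de novo lipogenesis, 1 (5.26%) was fat-high, against 21.6% of all genes (3 with library totals), and 1 was fat-low, against 12.4%. Of the 19, 11 were lower than in liver and 14 higher than in muscle (median log2 difference -1.58 against liver and 2.35 against muscle). Fatty acid synthase (Fasn) was 267, 559.5, 692 and 2978 CPM in fat, 809, 3325, 4690.5 and 4627 in liver and 17.5, 51.0, 23.5 and 52.6 in muscle. Fat 44 held more than 4 times the next fat library and lay inside the liver range, and the difference from liver did not pass the test (log2 -1.58 ± 0.78, adjusted p = 0.0896). The desaturase Scd was 1399, 3433, 3373 and 5535 CPM in fat and 1738, 10009.8, 9992 and 16794 in liver, with rat 41 the lowest in both tissues. Acetyl-CoA carboxylase (Acaca) and ATP-citrate lyase (Acly) were 3.67-fold and 6.49-fold lower than in liver and 5.08-fold and 5.61-fold higher than in muscle. Acacb, the mitochondrial isoform that restrains fat oxidation, was strongly fat-low at 12.6, 10.4, 14.5 and 19.4 CPM against 63.8 to 276 in liver and 339.8 to 548 in muscle (log2 -3.17 ± 0.49 against liver, -2.47 without liver 44). The malic enzyme Me1 did not pass the test against liver (log2 0.41 ± 0.52, adjusted p = 0.503) and was 3.17-fold lower than in muscle.

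Of 19 tested genes of triglyceride assembly 5 (26.3%) were fat-high, near the 21.6% of all genes, and 1 was fat-low (8 and 0 with library totals; median log2 difference 0.07 against liver and 1.97 against muscle). The enzymes of the last step, Dgat1 and Dgat2, were 75.8, 59.0, 104 and 87.8 and 616, 594, 794 and 1205 CPM in fat, above 19.6 to 26.0 and 356 to 447 in liver. Gpat3, the acyltransferase of the first step, was 57.9 to 78.8 CPM in fat, 0 to 2.13 in liver and 14.7 to 20.4 in muscle. The glycerol channel Aqp7 was strongly fat-high at 214, 186, 239 and 208 CPM against 1.74 to 8.75 in muscle and 1 count in all of liver. Gpd1, which makes glycerol phosphate, did not pass the test against either tissue: it was 865, 923, 1128 and 1982 CPM in fat, 538 to 1058 in liver and 674 to 1088 in muscle (log2 0.52 ± 0.28 and 0.45 ± 0.28). With library totals Gpd1 was called fat-high (log2 1.17).

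Of 19 genes of fatty acid uptake from lipoproteins 5 (26.3%) were fat-high, near the 21.6% of all genes, and none was fat-low (median log2 difference -0.44 against liver and 0.81 against muscle). Lipoprotein lipase (Lpl) was 4519, 4081, 5238 and 6312 CPM in fat, 5.25 to 9.06 in liver and 399, 318, 220.2 and 198 in muscle. It was 699-fold and 17.7-fold higher (log2 9.45 ± 0.37 and 4.15 ± 0.29, adjusted p = 4.16e-08). Gpihbp1, which carries Lpl across capillary walls, was 86.4, 40.6, 73.3 and 52.3 CPM in fat, 3.24 to 8.76 in muscle and 1 count in all of liver. The carrier Fabp5 was 81.7 ± 17.0 CPM (SD, n = 4) against 4.13 to 21.2 in liver and 3.23 to 7.54 in muscle.

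Genes of insulin and glucose handling divided, with 7 of 24 (29.2%) fat-high, against 21.6% of all genes, and 3 (12.5%) fat-low, against 12.4% (median log2 difference 0.51 against liver and 0.52 against muscle). Against each tissue alone, 12 were higher and 9 lower than in liver, and 10 were higher and 9 lower than in muscle. The insulin-driven glucose transporter Slc2a4 was 28.3, 24.0, 33.5 and 46.5 CPM in fat, at most 0.407 in liver and 264, 244, 205 and 299 in muscle, so fat lay between the others. Hexokinases Hk1 and Hk3 were fat-high at 23.4 to 36.5 and 5.22 to 11.2 CPM. The insulin receptor substrate Irs1 was fat-low at 31.2, 35.1, 50.3 and 44.0 CPM against 90.7 to 124 in liver and 149 to 181 in muscle. Pdk4, which shuts pyruvate oxidation, was fat-low at 45.7, 31.6, 17.3 and 17.5 CPM, though not with library totals (log2 -1.37, adjusted p = 0.0779). The list had 1 fat-low member under that scaling.

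Of 27 transcription factors of adipogenesis, 6 (22.2%) were fat-high, against 21.6% of all genes, and 8 (29.6%) fat-low, against 12.4% (10 and 5 with library totals; median log2 difference -0.15 against liver and 0.10 against muscle). Pparg, the master regulator of fat cells, was the strongly fat-high member: it was 131, 108, 108 and 104 CPM in fat, 2.34 to 4.50 in liver and 1.62 to 4.10 in muscle (log2 5.01 ± 0.22 and 5.36 ± 0.23, adjusted p = 9.56e-10). Its partner Cebpa was 188, 142, 199 and 221 CPM in fat and 219, 230.5, 293 and 312 in liver, where the ranges overlapped (adjusted p = 0.214), and 1.99 to 9.97 in muscle. The early B-cell factors Ebf1 and Ebf2, which act in fat precursors, were 95.4, 61.9, 72.1 and 79.8 and 54.2, 43.4, 65.3 and 58.4 CPM in fat, near 0 in liver and 16.8 to 26.6 and 7.98 to 13.6 in muscle. Twist1 and Klf4 were fat-high at 2.01 to 5.44 and 44.4 to 50.9 CPM. Among the fat-low members, Ppara, a regulator of fat oxidation, was 2.72 to 3.65 CPM against 53.5 to 83.4 in liver and 7.94 to 11.3 in muscle. Klf15 was 9.62 to 13.9 CPM against 53.6 to 129 in liver and 30.3 to 41.6 in muscle. Rxra was 26.0 to 49.0 CPM against 148 to 218 in liver and 83.5 to 116 in muscle. Rxrg was 5.13 to 9.20 CPM against 20.7 to 33.8 in liver and 73.4 to 98.9 in muscle. The mitochondrial coactivator Ppargc1a was 0.534, 0.641, 0.698 and 1.68 CPM in fat, 6.27, 2.24, 1.10 and 2.13 in liver and 34.8, 25.0, 21.8 and 28.1 in muscle. Its call against liver was lost without fat 41, 42 or 43 (adjusted p = 0.0654, 0.0698 and 0.0614) and with library totals (log2 -0.95), and the log2 value of -1.73 became -1.11 without liver 41.

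Uncoupling protein 1 (Ucp1), the hallmark that makes heat in brown fat, had no count in any of the 12 libraries. Elovl3 had none either. Its absence says little, because it was at most 0.0772 CPM in 7-week fat libraries 4 and 5, where Ucp1 was 474 and 465 CPM. Of the 14 brown and beige genes tested, 8 were fat-high, 3 of them strongly, and 1 was fat-low (0 with library totals; median log2 difference 2.15 (1.79 at the bounds) against liver and 1.86 against muscle). The strong ones were Cidea, a droplet protein, at 12.2, 17.2, 18.4 and 23.4 CPM, the potassium channel Kcnk3 at 30.0 to 47.2 CPM and the proton channel Otop1 at 1.96 to 7.25 CPM. All 3 stood far above liver and muscle, where the highest values were 0.997, 2.39 and 0.204 CPM; without liver 42 the log2 difference of Otop1 moved from 5.76 to 6.43. Cidea and Otop1 passed the filter on low counts through fat alone, so they could be tested only by being high in fat.

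Genes that pattern fat depots were fat-high for 5 of 14 tested (35.7%, against 21.6% of all genes) and fat-low for 1 (median log2 difference 5.05 (3.94 at the bounds) against liver and -0.18 against muscle). Wt1, a marker of visceral fat and its lining, was 16.6, 30.8, 13.6 and 9.72 CPM in fat and at most 0.305 elsewhere, with 3 counts in all of liver, all in rat 42, and 1 in muscle. Wt1 passed the filter on low counts through fat alone. Tcf21, another visceral marker, was 9.08 to 15.7 CPM in fat, 1.83 to 2.49 in liver and 0 in muscle. Hoxc8 was 15.0 to 23.1 CPM in fat, 0 in liver and 1.66 to 4.85 in muscle. Tbx15 and Hoxc10, known from subcutaneous fat, were at most 0.178 and 0.0891 CPM in fat and 216 to 246 and 45.9 to 61.4 in muscle. Hoxc6 was the weakest of the fat-high members (1.56-fold over muscle, adjusted p = 0.028) and lost its call without fat 44 or muscle 41, 42 or 43 (adjusted p 0.062 to 0.105).

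The mesothelium, the flat cell layer on visceral organs, was marked by genes higher in fat. Of 16 markers, 13 were fat-high, 10 strongly, and none was fat-low (median log2 difference 5.99 against liver and 4.85 (4.78 at the bounds) against muscle). Another 2 were lower than in liver. Summed over the list, liver libraries held 330 to 402 CPM, and only fat 42, at 818 CPM, lay above all of them. Msln, Upk3b, Lrrn4, Upk1b and Bnc1 passed the filter on low counts through fat alone, so they could be tested only by being high in fat. Mesothelin (Msln) was 25.2, 116, 21.0 and 16.3 CPM in fat, 0.119 to 0.667 in liver and 0.111 to 1.86 in muscle. Uroplakin Upk3b was 8.19, 36.7, 6.19 and 4.02 CPM and the leucine-rich repeat protein Lrrn4 7.84, 49.9, 7.24 and 5.57 CPM in fat. Fat 42 was the highest of the 4 for each, by more than 4 times the next. Upk1b, Bnc1 and Krt19 shared that order of the top library, with 28.8, 15.0 and 25.0 CPM in fat 42 and at most 7.75, 3.56 and 6.15 in the others. Without fat 42 the smaller log2 difference of Msln moved from 5.75 to 4.65, that of Upk3b from 5.51 to 4.34, of Lrrn4 from 6.08 to 4.73, of Upk1b from 6.43 to 5.33, of Bnc1 from 5.91 to 4.81 and of Krt19 from 2.64 to 1.68. All 6 stayed fat-high. Msln also moved to 6.45 without muscle 44.

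Genes of the stroma and matrix were mostly higher in fat than in either tissue. Stromal and preadipocyte genes were fat-high for 14 of 23 tested, with none fat-low (median log2 difference 4.28 against liver and 2.02 against muscle). Complement C7 was 364, 466, 490.5 and 321 CPM in fat, 2.67 to 4.58 in liver and 22.2 to 55.3 in muscle. Tissue factor (F3), known in mouse from stromal cells that restrain adipogenesis, was 111, 90.7, 145 and 72.0 CPM, and Gdf10 was 7.51 to 16.0 CPM. Mfap5, a microfibril protein, was 76.8, 92.6, 91.5 and 87.3 CPM in fat, 0 in liver and 8.39 to 14.5 in muscle.

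Collagens and matrix genes were fat-high for 23 of 32 and fat-low for none, with 30 higher than in liver and 25 higher than in muscle (median log2 difference 4.15 against liver and 1.37 against muscle). Fibrillin 1 (Fbn1) was 1909, 2852, 2879.9 and 2935 CPM in fat and 192 to 526 in muscle. Col5a3, a chain of type V collagen, and the basement-membrane genes Col15a1 and Lama4 were 489.8 ± 134, 453 ± 147 and 334 ± 46.3 CPM in fat, against 50.8 to 85.1, 39.6 to 106 and 52.8 to 59.6 in muscle (SD in fat, n = 4). The inhibitor Timp1 was the strongly fat-high member at 14.3 to 29.9 CPM. The abundant fibrillar collagens of types I and III were not fat-high: Col1a1 was 4.57-fold lower than in muscle, and Col3a1 was 1303, 2867, 4263 and 3255 CPM in fat and 639.8, 2895, 3587 and 2908 in muscle, with overlapping ranges (log2 0.22 ± 0.44). Rat 41 had the lowest level of both collagens in fat and in muscle.

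Endothelial genes were fat-high for 11 of 20 tested and fat-low for 1 (median log2 difference 1.66 against liver and 0.82 against muscle). Endomucin (Emcn) of capillaries and veins was 34.8 to 43.2 CPM against 3.60 to 5.81 in liver and 9.09 to 13.4 in muscle, and podoplanin (Pdpn), shared by lymphatic vessels and mesothelium, was 43.6, 60.3, 31.4 and 23.8 CPM. Prox1, a lymphatic factor that hepatocytes also make, was the fat-low member at 0.518 to 2.76 CPM against 306 to 328 in liver and 7.20 to 17.0 in muscle. Smooth muscle and pericyte genes were fat-high for 8 of 14 and fat-low for none (median log2 difference 3.67 against liver and 0.96 against muscle), with Acta2 at 66.0 to 97.7 and Myh11 at 127 to 214 CPM. Nerve and Schwann cell genes were fat-high for 3 of 9 tested, 33.3% against 21.6% of all genes (6 with library totals; median log2 difference 1.66 against liver and 0.90 against muscle). They include S100b, which fat cells also make, and the myelin gene Pmp22, at 144 to 159.7 CPM.

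Macrophage genes were fat-high for 18 of 23, strongly for 9, and fat-low for none (median log2 difference 2.78 against liver and 3.82 against muscle). Trem2, a receptor of lipid-handling macrophages, was 19.3, 14.8, 17.1 and 13.3 CPM in fat, 1 count in all of liver and at most 0.622 CPM in muscle. Gpnmb was 415, 258, 229 and 159.6, Spp1 117, 74.4, 59.2 and 46.2 and Lgals3 235, 152, 179.6 and 128 CPM, and rat 41 was the highest for all 3. The integrin Itgax of inflamed fat was 14.4 to 23.0 CPM and lysozyme (Lyz2) 494 to 869, both strongly fat-high. Cd209f was strongly fat-high at a low level (4.58 to 7.04 CPM), with a log2 difference from muscle of 4.79, or 5.49 without muscle 42. Trem2 and Cd209f passed the filter on low counts through fat alone, so they could be tested only by being high in fat. Markers of Kupffer cells, the macrophages of liver, had the opposite order: Clec4f was 45.3 to 75.7 CPM in liver and at most 0.641 in fat, Vsig4 11.0 to 17.1 against at most 0.183, and Marco 9.94 to 26.9 against at most 0.267.

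Of 25 lymphocyte genes only 5 passed the filter on low counts, and 3 of the 5 were fat-high, among them Cd4 at 79.8 to 94.2 CPM, which rat macrophages also make (median log2 difference 1.14 against liver and 3.21 against muscle). Neutrophil and mast cell genes were fat-high for 8 of 10 tested of 17 with a row (median log2 difference 5.46 against liver and 2.24 against muscle). The mast cell proteases Cma1 and Tpsab1 were 11.0, 22.8, 12.1 and 5.96 and 4.19 to 5.68 CPM in fat. Myeloperoxidase (Mpo) was 24.0, 26.2, 41.2 and 66.5 CPM while neutrophil elastase (Elane), made at the same stage of neutrophil growth, had no count in any library. The log2 difference of Mpo from muscle was 6.76, or 9.53 without muscle 42. Mpo and Tpsab1 held 1 count each in all of liver and 12 and 25 in all of muscle. They passed the filter on low counts through fat alone, so they could be tested only by being high in fat. Red-cell genes were fat-high for 6 of 7 tested (median log2 difference 2.42 against liver and 3.27 against muscle), with Hbb at 429.9 to 657 CPM in fat and 64.7 to 170.3 in liver; the globin genes have near-identical copies and their separate counts are uncertain.

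Most complement and coagulation genes were lower in fat than in liver: 22 of 36 were lower than in liver, 12 (33.3%, against 21.6% of all genes) were fat-high and none fat-low (median log2 difference -2.05 against liver and 1.34 against muscle). The 4 strongly fat-high members were Cfd, C7, F3 and the clotting factor subunit F13a1, at 197, 244, 168 and 219 CPM. Complement C1qa of macrophages was fat-high at 187 to 215 CPM. C3, the hub of complement, was 111, 91.8, 24.0 and 27.6 CPM in fat against 14217 to 19394 in liver.

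Aldehyde, redox and retinoid enzymes were fat-high for 4 of 21 tested (19.0%, against 21.6% of all genes) and fat-low for 1 (7 fat-high with library totals; median log2 difference -2.06 against liver and 2.04 against muscle). The secreted peroxidase Gpx3 was 1032, 603, 902 and 714 CPM in fat, 5.98 to 7.02 in liver and 87.5 to 179 in muscle. Retsat, a retinol saturase induced in fat-cell formation, was 1874 to 2680.3 CPM against 1093 to 1307 in liver. Sod3 was 190.1 to 287 CPM. Aldh1a2, a retinoic acid enzyme of mesothelium, was 8.55, 32.2, 7.67 and 8.68 CPM, again highest in fat 42, with a smaller log2 difference of 2.10, or 1.31 without it. Aldh1a1 was fat-low at 7.33 to 13.6 CPM against 273 to 455 in liver and 38.6 to 52.6 in muscle. Of 16 steroid and nuclear receptor genes none was fat-high or fat-low (3 fat-high with library totals; median log2 difference 0.10 against liver and -0.09 against muscle).

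Genes of other tissues were looked up to see what else the fat samples held. All 18 hepatocyte genes were lower than in liver and none was fat-high or fat-low (median log2 difference -7.77 against liver and 0.60 against muscle); Alb was 865, 451, 179 and 149 CPM in fat and 73.1, 754, 7.15 and 318 in muscle. All 16 striated muscle genes were lower than in muscle (median log2 difference 6.36 (4.58 at the bounds) against liver and -12.18 against muscle), with Acta1 at 14.6, 6.23, 1.13 and 0.259 and Ckm at 9.26, 4.30, 0.436 and 0.259 CPM in fat, highest in rat 41 for both and for Alb. Of the 13 pancreas genes 2 were tested and neither was fat-high or fat-low, 1 being higher and 1 lower than in liver, and the same against muscle (1.82 against liver and 3.03 (1.66 at the bounds) against muscle), of 15 testis and epididymis genes 2 were tested and neither was fat-high or fat-low (-3.67 against liver and -2.74 (-3.84 at the bounds) against muscle), and Crisp1 of epididymis had no count. Of 13 kidney genes 6 were tested and 1 (16.7%, against 21.6% of all genes), the endocytic receptor Cubn, was fat-high at 28.1 to 39.5 CPM (2 with library totals; median log2 difference 6.59 (4.33 at the bounds) against liver and 1.72 against muscle), while the kidney hallmark Umod was at most 1.19 CPM.

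Of 11 adrenal genes 3 were tested and all 3 were strongly fat-high (median log2 difference 9.27 (6.66 at the bounds) against liver and 5.93 against muscle). They were the ACTH receptor Mc2r at 34.9, 22.5, 24.4 and 10.5 CPM, the cholesterol carrier Star at 5.70, 13.1, 8.55 and 18.9 CPM and the steroid-forming enzyme Cyp11a1 at 8.02, 6.32, 8.55 and 10.2 CPM. Mc2r is known to be made by rodent fat cells. Each of the 3 had at most 10 counts in all of liver and 8 in all of muscle. They passed the filter on low counts through fat alone, so their being fat-high is no result about the list. The ranges of all 3 lay above those of liver and muscle, where Mc2r had 2 counts in all, both in muscle 42; it was 397-fold (95% counting interval 109.8 to 3275) higher than in muscle.

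Among genes with usable names, the others with the widest gap from both tissues, taken by the size of the smaller difference, were mostly at low levels. Grifin, a galectin-related protein, was 7.66, 14.3, 19.6 and 34.8 CPM, the galectin Lgals12 of lipid droplets 14.7, 16.6, 17.6 and 23.3 CPM and the succinate receptor Sucnr1, which restrains lipolysis, 13.6, 13.0, 17.3 and 19.8 CPM. Crtac1 was 8.03 to 21.1, Jakmip3 10.1 to 15.2, Tmem52b 4.85 to 8.64 and Bin2a 5.61 to 7.38 CPM. Liver and muscle together held at most 4 counts of any of these 7 genes, so their ratios have wide counting intervals. All 7 passed the filter on low counts through fat alone and were then ranked by that same gap, so their being fat-high is no separate result. Bin2a had none in the 8 libraries and was at least 81.4-fold higher than in liver and 76.4-fold higher than in muscle. Lgals12 was at least 220.3-fold higher than in liver and 207-fold (95% counting interval 70.7 to 1002) higher than in muscle. Without muscle 42, which held the single muscle count of Grifin, Crtac1 and Tmem52b and both of Mc2r, the fitted log2 differences moved from 8.80 to 10.47, 8.20 to 9.87, 7.38 to 9.05 and 8.34 to 10.76.

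Some strongly fat-low genes were near 0 in fat and others were present at a lower level. Hemojuvelin (Hjv), the iron sensor coreceptor, was 1.34, 0.458, 0.174 and 0.259 CPM in fat, 79.8 to 128 in liver and 1032 to 1335 in muscle. Carbonic anhydrase Car14 was at most 0.549 CPM in fat and at least 24.3 in the other libraries. The amino acid transporter Slc38a4 was 13.6, 5.49, 3.49 and 1.94 CPM in fat, highest in rat 41, against 1194 to 1841 in liver and 154 to 216 in muscle. Without fat 41 the smaller log2 difference moved from -7.46 to -8.38 for Hjv and from -4.89 to -5.64 for Slc38a4; without fat 42 it moved from -7.18 to -8.53 for Car14 and from -6.79 to -7.52 for Sel1l3. Coq8a, a kinase-like protein of coenzyme Q synthesis, was 15.6, 13.7, 16.4 and 15.8 CPM in fat, 321 to 348 in liver and 420.0 to 624 in muscle. Others of the class were the muscle coupling protein Stac3, the sulfonylurea receptor Abcc8, the desaturase family member Fads6, Magix and Sel1l3, at most 0.648, 0.366, 1.43, 0.0916 and 0.275 CPM in fat.

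Most mitochondrial transcripts were lower in fat under the scaling used. Of 25 nuclear genes of the respiratory chain 15 were fat-low and 2 fat-high (median log2 difference -0.58 against liver and -1.68 against muscle), and all 13 protein genes of the mitochondrial genome were fat-low (median log2 difference -1.26 against liver and -1.60 against muscle). With library totals 3 and 7 were fat-low, so these counts depend on the scaling. COX1 was 11950.0, 12546, 13226 and 14407 CPM in fat, 38338 to 44832 in liver and 37170.4 to 48298 in muscle, and CYTB and ND4 were also lower in every fat library than in any other. The 13 protein genes of the mitochondrial genome took 6.77% ± 0.200 of counts in fat, 9.62% ± 0.286 in liver and 13.0% ± 0.751 in muscle (exact two-sided permutation p = 0.0286 each, the smallest possible, 0.0286 after adjustment, with the pairing by rat not used). This share uses no scaling factor, but it depends on the library total, which in fat held a larger part of RNAs lacking poly(A). It also leaves out the other RNAs of that genome. Other rows of that genome, with no gene name in the files, did not all follow: 2 of them were strongly fat-high, at mean fat levels of 9488 and 3481 CPM, and met the strong criteria in 0 of the 5 ultrasound-treated groups. Complex I subunits Ndufs1 and Ndufv2 were 67.6 to 81.1 and 51.3 to 62.5 CPM in fat, below 151 to 182 and 119.5 to 138 in liver. Sdha was fat-low and was not called with library totals (log2 -0.28, adjusted p = 0.0895). The fat-high members were Cox8a and Cox6a1, the liver-type isoforms of cytochrome oxidase that muscle replaces, at 149 to 225 and 128 to 187 CPM in fat against 12.6 to 19.0 and 17.0 to 19.7 in muscle.

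Clock genes were fat-low for 6 of 18 tested (33.3%, against 12.4% of all genes) and fat-high for none (4 and 2 with library totals; median log2 difference -0.53 against liver and -1.64 against muscle). Nfil3, a repressor of clock output genes, was strongly fat-low at 3.57 to 5.79 CPM against 38.3 to 75.1 in liver and 28.6 to 53.7 in muscle. Cry1 was 2.33 to 3.65 CPM, and Hlf was 1.16, 1.19, 1.22 and 3.50 CPM with rat 44 the highest. The labels do not state the hour of collection.

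**Figure D3:**
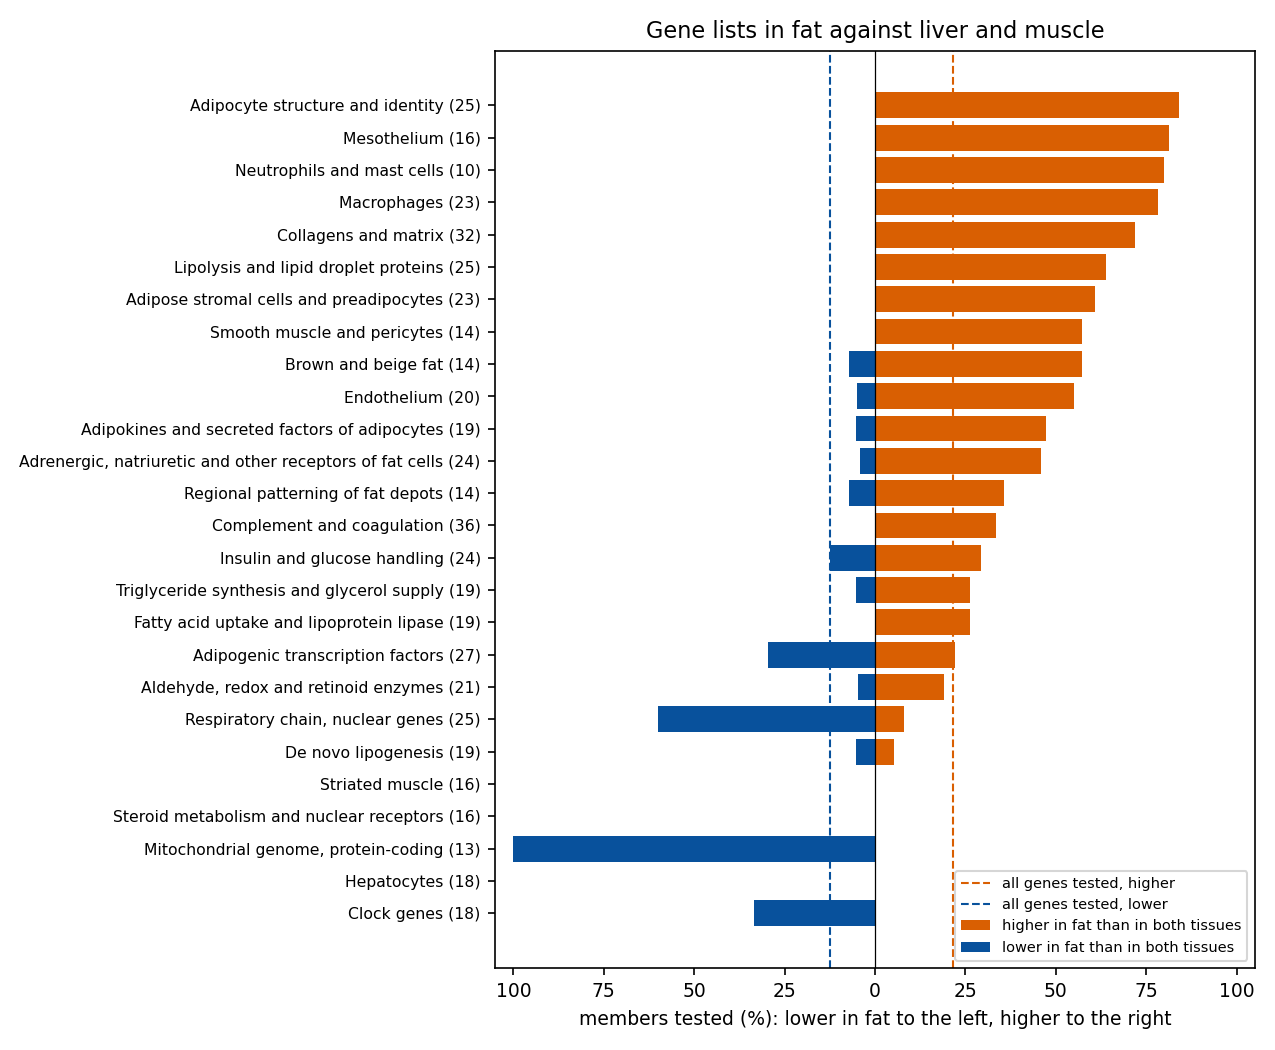
Share of the tested members of each list with at least 10 tested genes that were higher in fat than in both tissues (bars to the right) or lower than in both (bars to the left), in percent, with the number tested in brackets. Dashed lines mark all 13773 genes (21.6% higher, 12.4% lower); adipocyte identity, mesothelium, neutrophil and mast cell, and macrophage lists reach farthest right and the mitochondrial genome farthest left.

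The 4 fat samples differed among themselves more in strongly fat-high genes than in genes at large, as a description with no test. Over genes with a mean of at least 10 CPM in fat, the median coefficient of variation was 21.8% for 256 strongly fat-high genes, 20.1% for the 219 of them with usable names and 12.9% for all 7505. The strongly fat-high genes together took 8.79%, 10.9%, 10.6% and 19.1% of the counts of fat 41, 42, 43 and 44, and at most 0.149% of any liver and 0.319% of any muscle library. Most of the difference between fat samples came with rows that have no usable name: the named ones took 7.51%, 6.33%, 7.23% and 6.50%, with rat 41 the highest and no rise in rat 44. Among the 10 most variable genes with a usable name, Lrrn4, Upk3b, Dsp and 4 others were highest in fat 42, and Fasn in fat 44. The oxytocin receptor (Oxtr), chosen after its values were seen, was 9.00, 31.6, 38.0 and 103 CPM in fat, 0 in liver and at most 1.22 in muscle. It was strongly fat-high with a log2 difference from muscle of 6.65, which became 5.87 without fat 44 and 8.03 without muscle 42.

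Summed over each list, the same 4 samples ranked differently by cell type. De novo lipogenesis genes summed to 3152, 5665, 5861 and 12017 CPM in fat 41 to 44, with rat 41 low and rat 44 high. Mesothelial genes summed to 326, 818, 352 and 259.9 CPM, with rat 42 high. Collagens and matrix summed to 12256, 16952, 22179.6 and 21290.5 CPM, lowest in rat 41, while macrophage genes summed to 3563, 3043, 2646 and 2479 CPM, highest in rat 41. Adipocyte identity genes varied less, at 32828, 27676, 37739.7 and 36954 CPM.

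**Figure D4:**
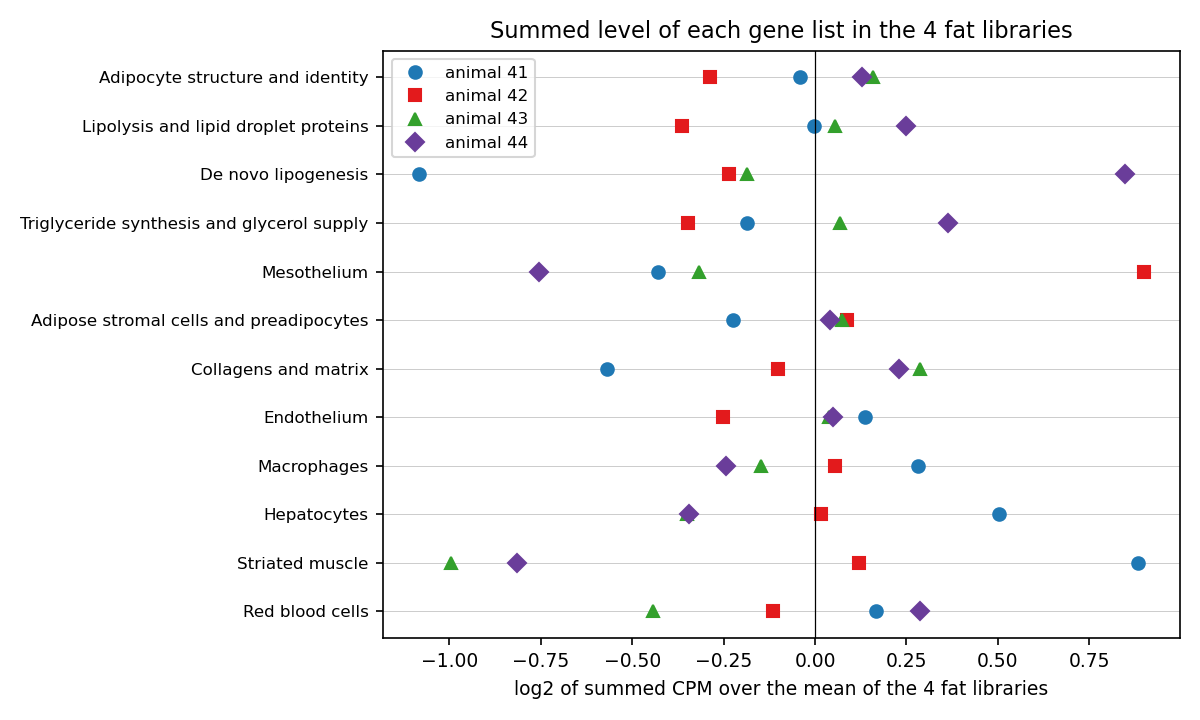
Summed CPM of 12 gene lists in each of the 4 fat libraries, as the log2 ratio to the mean of the 4 (x axis), with 1 symbol an animal. Lipogenesis spreads from rat 41 (lowest) to rat 44 (highest), mesothelial genes stand out in rat 42, and hepatocyte and striated muscle genes are highest in rat 41.

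The same contrast in the 20 rats of the 5 ultrasound-treated groups gave most of the strongly fat-high genes again in 4 groups and fewer in the 3-day x10 group. Strongly fat-high genes made up 3.59% of genes tested in the 3-day x1 group, 1.8% in the 3-day x10 group, 3.75% in the 4-week AM & PM x1 group, 3.57% in the 4-week AM only x10 group and 4% in the 4-week AM & PM x10 group. Of the 434 genes, 354 (81.6%), 192 (44.2%), 347 (80.0%), 334 (77.0%) and 354 (81.6%) met the criteria in these groups in that order, which is 71.4%, 78.7%, 67.1%, 66.9% and 63.2% of each group's own strongly fat-high genes. The fat library of rat 37 in the 3-day x10 group stood apart: it held Ucp1 at 80.4 CPM and Msln at 0.109, where the other 3 of its group held Ucp1 at no more than 0.0928 and Msln at 9.69 to 43.2. Without that library 316 genes (72.8%) were shared, against 3.08% of genes called in the group. All 5 groups called 155 of the genes (35.7%), or 231 (53.2%) without rat 37, and 18 (4.15%) were called in none, or 15 (3.46%). These rats differ from the sham rats in treatment as well as being other animals.

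The 7-week sham rats allowed fat to be compared with 7 tissues at once: blood, brain, intestine, kidney, liver, muscle and pancreas. Of the 434 genes, 415 were tested there and 63 (15.2%) were higher in fat than in each of the 7, against 263 of all 16972 genes (1.55%). Liver and muscle are among the 7, and the 434 genes were chosen for being high against them. Their share is therefore partly fixed by that choice. Fat libraries 4 and 5 of that group stood apart, with Ucp1 at 474 and 465 CPM, Msln at 0.154 and 0.295 and Adipoq at 510.2 and 703, where libraries 1 and 2 had Ucp1 at 0, Msln at 27.5 and 65.3 and Adipoq at 1882 and 1842. Without libraries 4 and 5, 100 of 434 genes (23.0%) were higher than in each tissue, against 341 of 17634 (1.93%).

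By tissue, 96.9% of the genes tested were higher in 7-week fat than in liver and 94.5% than in muscle, where 32.5% and 34.2% of all genes were. The shares were 75.4% against pancreas (24.7% of all genes), 75.2% against brain (31.1%), 74.5% against kidney (29.1%), 72.5% against intestine (28.8%) and 56.6% against blood (39.1%). Pancreas libraries were made with the same total-RNA kit as fat, per the labels. RNAs lacking poly(A) took 4.62% to 14.8% of counts in 7-week fat, 15.4% to 21.7% in pancreas and at most 0.0425% in the other 6 tissues.

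The gene calls that follow used all 4 fat libraries of the 7-week group, with libraries 4 and 5, which stood apart, kept in. The genes called without them are not given here by name. Among the genes described, those higher than in all 7 tissues included the hormones Adipoq, Retn and Cfd, the droplet and lipase genes Fabp4, Lpl, Plin1, Cidec, Cidea and Lipe, the receptors Adrb3, Hcar1, Tshr, Npr3 and Mc2r, and Pparg. Trarg1, Sncg, Aoc3, Cav1, Tmsb10, Aqp7, Gpihbp1, Kcnk3, Otop1, Cyp11a1, Gpnmb and Mpo also were. Cidea was 9.70 and 9.76 CPM in fat libraries 1 and 2 and 129 and 128 in libraries 4 and 5. Otop1 was 1.21 and 0.939 against 7.49 and 7.18 CPM in the same order. Lep was not called, its smallest log2 difference being 3.32, from muscle. Its level was 1113 and 968 CPM in fat libraries 1 and 2 and 294 and 273 in libraries 4 and 5. S100b and Nnat were nearest to brain. Both were also lower in fat libraries 4 and 5, with S100b at 51.4 and 59.1 CPM there against 780 and 824 in libraries 1 and 2. Of the macrophage genes, Lyz2 and Itgax were nearest to blood, Trem2 to brain, Lgals3 to intestine and Spp1 to kidney, and none of the 5 was called.

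**Figure D5:**
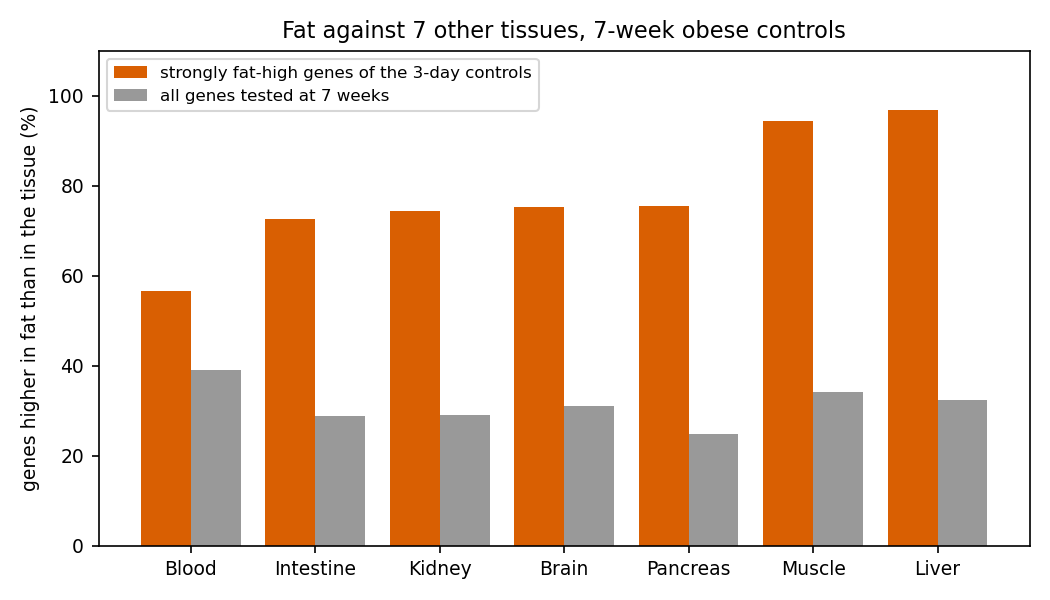
Share of genes (y axis, percent) called higher in fat than in each of 7 tissues of the 7-week sham-treated obese rats, for the strongly fat-high genes of the 3-day rats (orange) and for all 16972 genes tested (grey). The orange bars run from 56.6% against blood to 96.9% against liver, above the grey bars of 24.7% to 39.1%. The strongly fat-high genes were chosen for being high against liver and muscle, so the orange bars of these tissues are partly fixed by that choice.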

How the data were processed

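RNA was sequenced from adipose, liver and muscle. The authors deposited expected counts per gene (RSEM estimates, which need not be whole), 1 column a library. Per the submitters' processing notes, STAR 2.5.3a, RSEM and the build Rnor_6.0 were used; they name no annotation release. Per the labels' protocols, RNA was kept in RNAlater, and stranded mRNA kits were used for tissues other than adipose and pancreas, which had stranded total-RNA kits.

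Counts were rounded to whole numbers. Genes were kept by edgeR's filterByExpr (minimum count 10), leaving 13773 of 32623, and 17228 genes of the table matched a RefSeq symbol. TMM scaling, robust quasi-likelihood fits over the 3 tissues and Benjamini-Hochberg adjustment used edgeR 4.0.16 with limma 3.58.1 in R 4.3.3. A gene was called against both tissues by the larger of both p-values where both differences had 1 sign. CPM used the scaled library size. Changes against a group at 0 were bounded with 3 counts over the group. Counting intervals and bounds (95%) cover counting error only. DESeq2 1.42.0 served as an alternative; figures used matplotlib 3.10.9 under Python 3.11.15. The fit was tested on simulated counts in which all but the changed genes were equal across tissues, unlike the data. It recovered 69% of 100 genes changed 2-fold and 97% of 100 changed 8-fold, with 0 false calls. Of the genes changed 8-fold, which is the cutoff of the strong class, 36% were placed in that class.

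Samples were grouped by label, and the same animal gave all 3 tissues. Deviations from group means correlated at -0.0896 to 0.175 within 12 same-animal pairs and at -0.272 to 0.273 in 36 other pairs; the block by animal was run as an alternative. No 2 libraries of a tissue agreed within sampling noise (chi-square per degree of freedom at least 10.2).

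Among genes with usable names, those named were the 15 strongly fat-high genes of highest fat level, the 10 with the largest smaller difference and at least 5 CPM, the 10 strongly fat-low genes with the largest fall and at least 5 CPM in both other tissues, up to 6 members a list and direction, and label markers. Further list members, and Oxtr, were named after their values were seen; some genes are not reported here by name. The members and the 33 gene lists were chosen with earlier results of these data known; 37 listed genes were not analysed here.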

Additional observations from a re-analysis of the deposited data

Results flagged for a closer look

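Of 358 groups of 4 libraries looked at, 25 (6.98%) held a library whose gap to the nearest of the others exceeded the 95% critical value of Dixon's test, where chance gives about 1 in 20. No explanation was tested for any of them.

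In fat, 7 of the 25 were mesothelial or mesothelium-associated genes with rat 42 far above the others: Msln at 116 CPM, Lrrn4 at 49.9, Upk3b at 36.7, Aldh1a2 at 32.2, Upk1b at 28.8, Krt19 at 25.0 and Bnc1 at 15.0. Rat 44 was far above in 5 fat genes: Fasn at 2978 CPM, Lep at 2915, Acaca at 265, the retinoid receptor Rxra at 49.0 and the clock gene Hlf at 3.50. Rat 41 was far above the rest for Pparg at 131 CPM and far below for Fbn1 at 1909 CPM.

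In muscle, rat 42 was far above the others for 4 genes of fat or liver: Lep at 53.8 CPM, Cidec at 14.7, Cebpa at 9.97 and Agt at 8.31. Rat 41 was far below for Mfap5 at 8.39 CPM and rat 43 far below for Ndufs1 at 285 CPM.

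In liver, the far libraries were spread over all 4 rats. CYTB was 12946 CPM in rat 44, Angptl4 183 in rat 43, Ndufv2 138 in rat 41 and Emcn 5.81 in rat 44, each the highest, and Sel1l3 was the lowest in rat 42 at 13.6 CPM.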

How the results depend on the processing

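Under RLE size factors, DESeq2, no filter on low counts, the replicate block by animal, only the 2 tissues compared in each fit, and without RNAs lacking poly(A), each count of genes stayed within 1.5 times its first value: 2701 to 3055 fat-high, 1638 to 1888 fat-low, 399 to 556 strongly fat-high and 61 to 67 strongly fat-low. The replicate block gave 2914, 1638, 439 and 62, with 425 and 62 of the strong genes shared, and changed no call of a named gene. Leaving out 1 library at a time gave 2762 to 3017, 1515 to 1713, 434 to 491 and 55 to 70; against liver 5064 to 5314 genes were higher and 4536 to 4857 lower, and against muscle 5399 to 5730 and 4016 to 4252. The fat-minus-liver and fat-minus-muscle shares stayed at 8.47 to 10.4 and 10.9 to 12.8 percentage points for RNAs lacking poly(A), and at -2.98 to -2.75 and -6.54 to -6.02 for the mitochondrial genome.

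Of 2840 values of 158 named genes under these alternatives, 2828 kept their side of the threshold, 12 lost their call and none reversed; DESeq2 gave no p for 4 values. Calls lost were those of Hoxc6 (also under RLE, adjusted p = 0.0560, DESeq2, 0.0814, and the fit of 2 tissues, 0.137), Ppargc1a, Plin4 and Pnpla2. The cause was not tested.

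Alternatives chosen after seeing the data moved more. With library totals and no scaling factor, 5929 genes were fat-high, 407 fat-low, 907 strongly fat-high and 28 strongly fat-low; 8581 were higher and 2252 lower than in liver, and 8575 higher and 2138 lower than in muscle. No named gene that was called fat-high or fat-low changed sign. Named genes that were not called were not checked for a change of sign. Without fat 37 the 3-day x10 group shared 316 strongly fat-high genes, and 167 to 316 over its 4 fat libraries left out in turn; the other groups gave 349 to 362, 346 to 351, 324 to 353 and 349 to 363. At 7 weeks 49 to 81 genes were called with 1 fat library left out, 59 with the replicate block and 100 without libraries 4 and 5.

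Fat libraries were the shallowest, at 5902198 to 8289773 counts, which limits the genes of a few counts.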

Other observations

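Strongly fat-high genes were not equally low in the other tissues. Over the 256 of them with at least 10 CPM in fat, the median level in a muscle library was 3.57% to 6.14% of the mean fat level, against 1.56% to 1.77% in a liver library. These are values of the same genes that were chosen for being low there, and carry no test.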
